A study of Mus musculus with 12 samples.

Results

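The transcripts described here are those that activation raised at least 4-fold in BV2 microglia and that were at least 2-fold lower in activated cells given compound E29 than in activated cells given no compound. The rule took 172 of 25697 array probes, or 0.669%. A level was the log2 of the authors' processed intensity, with values under 50 raised to 50. A probe was a member if the median level of the 11 activated arrays exceeded the non-activated level by at least 2 and the E29 level lay at least 1 below the activated control. The activation step alone took 294 probes, of which the members were 58.5% and the remaining 122 were lowered less than 2-fold by E29. Members were thus chosen by their rise with activation and by the difference between E29 and the activated control, and these values are given below as a description with no test.

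BV2 is an immortalised line of mouse microglia, the resident macrophages of the brain. Total RNA was profiled on 12 single-colour Illumina arrays, 1 for each condition. Cells treated with E29 and cells treated with 1 of 9 other compounds (E33, E23, E21, E20, E19, E18, E14, E5 or E4) were all activated with 1 µg/ml lipopolysaccharide (LPS, a component of the bacterial outer membrane) and 10 ng/ml interferon-γ (IFN-γ). The activated control received the same LPS and IFN-γ and no compound, and the non-activated control received neither, with every array taken after 4 h. All cultures were of the same line. Compounds are known here by code only, and the sources used here give neither dose nor vehicle. With 1 array per condition no difference has a replicate check, no p-value is given, and precision is limited by how few arrays there are.

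Microglia sense LPS through Toll-like receptor 4, which activates the NF-κB and interferon regulatory factor (IRF) pathways. IFN-γ acts through its own receptor and JAK kinases, which leads to induction of IRF1 and other secondary regulators. Together these stimuli are the classical route to a pro-inflammatory macrophage state that secretes cytokines and chemokines, makes nitric oxide and displays antiviral and antigen-presenting proteins. The signalling is held in check by induced inhibitors such as IκBα, A20 and SOCS3.

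Platform annotation gave a gene for 163 of the 172 probes. These covered 133 genes, and 9 probes are unnamed here. RefSeq promoter sequence, 250 bases before to 50 bases after a gene's start, was at hand for 102 of the 133 genes. Promoters of 4 genes from the NF-κB and interferon classes are shown because they carry the letter patterns by which those pathways are usually recognised. The patterns were searched on both strands, and capitals mark the matches. An NF-κB pattern was GGGA and TTCC around any 2 bases, an interferon-stimulated response element (ISRE) was GAAA and GAAA around any 2 bases, and an IFN-γ-activated site (GAS) was TTC and GAA around any 3 bases. The sequences are from RefSeq on build GRCm38.p6, each written 5′ to 3′ along its gene's strand. Irf1 (chr11:53769764-53770063, plus strand) encodes the factor that relays the IFN-γ response, and its window held 1 GAS match. Cxcl10 (chr5:92348840-92349139, minus strand) encodes a chemokine that attracts T cells, and its window held an ISRE and an NF-κB match. Nfkbia (chr12:55492598-55492897, minus strand) encodes the NF-κB inhibitor IκBα, and its window held 1 NF-κB match. Gbp5 (chr3:142496684-142496983, plus strand) encodes an interferon-inducible guanylate-binding protein, and its window held 4 matches, 1 NF-κB, 1 ISRE and 2 GAS.
Irf1: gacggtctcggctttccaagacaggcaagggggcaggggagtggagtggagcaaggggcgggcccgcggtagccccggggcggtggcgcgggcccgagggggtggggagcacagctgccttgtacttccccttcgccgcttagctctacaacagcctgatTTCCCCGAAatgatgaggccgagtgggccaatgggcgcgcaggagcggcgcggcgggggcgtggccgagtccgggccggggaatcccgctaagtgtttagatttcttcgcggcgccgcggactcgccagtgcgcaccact
Cxcl10: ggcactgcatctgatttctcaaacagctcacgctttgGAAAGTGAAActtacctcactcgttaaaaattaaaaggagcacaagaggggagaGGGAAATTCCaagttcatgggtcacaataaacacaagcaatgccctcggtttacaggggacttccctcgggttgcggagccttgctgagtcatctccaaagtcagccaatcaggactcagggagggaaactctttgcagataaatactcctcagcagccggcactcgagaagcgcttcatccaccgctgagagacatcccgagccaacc
Nfkbia: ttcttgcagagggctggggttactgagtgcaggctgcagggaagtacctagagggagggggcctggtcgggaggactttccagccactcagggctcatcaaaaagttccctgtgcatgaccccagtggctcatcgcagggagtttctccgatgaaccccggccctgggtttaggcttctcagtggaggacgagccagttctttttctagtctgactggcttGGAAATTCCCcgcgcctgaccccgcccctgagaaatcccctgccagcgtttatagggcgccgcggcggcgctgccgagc
Gbp5: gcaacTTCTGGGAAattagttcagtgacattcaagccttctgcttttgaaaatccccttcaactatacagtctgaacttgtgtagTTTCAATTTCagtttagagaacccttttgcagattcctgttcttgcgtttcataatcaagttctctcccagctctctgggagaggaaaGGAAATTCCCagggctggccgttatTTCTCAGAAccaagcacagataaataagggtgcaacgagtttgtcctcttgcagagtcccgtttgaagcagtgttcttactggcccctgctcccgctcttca

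Over the 131 promoters of these member genes, an ISRE match was present in 19.1%, a GAS match in 14.5% and an NF-κB match in 4.58%. Among 83 promoters of strongly induced genes with no member probe, the shares were 14.5%, 14.5% and 6.02%. Among all 32851 promoters of the table they were 3.44%, 8.30% and 1.47%. An AP-1 pattern (TGANTCA) was found in 15.3% of member promoters, 14.5% of the other induced promoters and 7.81% of all promoters. A CRE pattern (TGACGTCA) was found in 1.53%, 0% and 1.79% of the same sets, and TATAAA in 12.2%, 18.1% and 13.6%. The ISRE, GAS, NF-κB and AP-1 patterns were thus more frequent in the promoters of induced genes than in all promoters, and the member and other induced shares lay close to each other. A match is a run of letters in this window and not a measured binding site.

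Before the members are described, the arrays themselves can be placed in a few values. Probes detected (detection p-value under 0.01) numbered 8651 in E29 and between 8538 and 9493 over the 12 arrays. Medians of the processed values were 14.9 to 15.0, and 45.1% to 45.2% of probes sat at the lowest value, 10. No 2 arrays were identical. Of 17 microglia and macrophage markers, 14 had a named probe, and Tyrobp, Fcer1g, Trem2, Adgre1, Laptm5, C1qb, Spi1, Ptprc and 2 of 3 Aif1 probes were detected on 12 arrays. Itgam was detected on 1 array, with a highest value of 60.2, and Cx3cr1 on 2, with a highest value of 72.3. C1qa, P2ry12 and Tmem119 stayed under 50 on every array, so these markers of microglia in the intact brain were not seen in the line. The summed intensity of the 19 marker probes was 41787 in E29, 37429 to 40797 in the other 9 compounds, 38123 in the activated control and 41590 in non-activated cells, a sum carried by the brightest probes. Single markers moved either way, with E29 minus activated control differences of -0.92 for Spi1, -0.72 for C1qb, -0.65 and -0.23 for the Ptprc probes, 0.53 for Tyrobp and 0.53 for Trem2. Over the 14 marker probes tested the median difference was 0.28, and the part of these shifts in the members' levels was not tested. Markers of neurons, astrocytes, endothelial cells and T cells were under 50 on every array, and among oligodendrocyte markers 2 of 6 probes passed 50 on at least 1 array. In a bulk sample, fewer cells of a type and less RNA per cell cannot be told apart.

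Activation raised the members by a median of 2.93 on the log2 scale, or 7.64-fold, with a range of 2.01 to 8.23. At least 16-fold rises were seen for 43 of the 172. Over all 11072 probes above 50 on any of the 12 arrays, 2.66% rose at least 4-fold. Where the non-activated value was under 50 a rise is a lower bound, which applied to 58 members (33.7%) and to 41 of the 122 other induced probes (33.6%). All 172 members were detected on each of the 10 activated arrays other than E29, 156 were detected in E29 and 115 in non-activated cells.

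In E29-treated cells the members lay a median of 1.84 below the activated control on the log2 scale, or 3.58-fold lower, with an interquartile range across probes of -2.40 to -1.40. At least 4-fold lower levels were found for 72 probes, at least 8-fold for 29 and at least 16-fold for 5. Over all 10166 probes tested, 9.5% were at least 2-fold lower in E29 than in the activated control, and the median difference was 0.10. The median difference of the 294 induced probes was -1.20, and that of the 122 that were not members was -0.44. Because the rule used this contrast, the members' share carries no information of its own.

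The E29 level can also be set against the other 9 compounds, whose levels entered the median rise that the rule used. Set against the median of the other 9 compounds, the E29 level was lower by at least 1 for 160 of the 172 members. Their median difference was -1.65 on the log2 scale, and the smallest was -0.70. For 167 members the E29 array was the lowest of the 11 activated arrays, against 23.8% of all probes. The E29 array remains one that chose the members, and the rule also asked for a high median over the activated arrays. The low place of E29 here was thus largely set by the rule and adds no support.

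The members' levels above the non-activated control, on the log2 scale, can be given for each array. In E29 they had a median of 1.35, an interquartile range across probes of 0.63 to 2.10 and a full range of -1.63 to 6.15. In the other 9 compounds the medians lay between 2.68 in E19 and 3.09 in E21. In the activated control the median was 3.27, with an interquartile range of 2.51 to 4.26. The upper quartile of E29 lay below the lower quartile of E19, which was 2.16 and the lowest of the other 10 activated arrays. The rule used these levels to choose the members, so the low place of E29 is a description and adds no support.

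Among the secreted ligands, the cytokine genes Tnf, Il1a, Il1b and Il27 had a member probe. They were 4 of 8 induced genes on a list of cytokines for which 26 genes had a named probe. Over all 294 induced probes 58.5% were members. The gene counts of this and later lists take a gene with any member probe, so they are not shares of probes. Of the induced probes, 4 of 11 were members for cytokines, 6 of 11 for chemokines and 6 of 16 for surface receptors. The counts were 12 of 17 for the NF-κB list, 16 of 22 for the IFN-γ list and 19 of 33 for the type I interferon list. Effectors had 12 of 14 and antigen processing 2 of 4. A probe count near 58.5% is no result about the list. Tnf, the early pro-inflammatory cytokine of macrophages, measured 676.1 in E29, 5803.8 to 7170.8 with a median of 6783.6 in the other 9 compounds, 7385.5 in the activated control and 342.3 in non-activated cells. E29 alone stood apart from the narrow band of activated arrays, 10.9-fold below the activated control and 1.98-fold above the non-activated control. Il1a, one of the 2 agonists of the interleukin-1 receptor, measured 2838.8 in E29, 6539.5 to 11988.8 with a median of 7210.9 in the other 9 compounds, 11913.2 in the activated control and 92.3 in non-activated cells. It was 4.20-fold below the activated control. Il1b, the other agonist, measured 6282.0 in E29, 8087.4 to 15029.0 with a median of 12811.6 in the other 9, 14728.8 in the activated control and 88.4 in non-activated cells. Il1b was 2.34-fold below the activated control in E29 and still 71.1-fold above non-activated cells, whereas Tnf was close to its non-activated level. Il27, a cytokine subunit made by activated myeloid cells, measured 136.7 in E29, 132.7 to 476.0 with a median of 322.4 in the other 9, 659.5 in the activated control and 10.0 in non-activated cells, and E19 lay just below E29. The induced cytokine genes with no member probe were Il6, Il15, Il1rn and Ifnb1. Il6 measured 517.1 in E29 and 927.0 in the activated control, a difference of -0.84, and Ifnb1, the type I interferon, measured 1290.6 in E29 and 1071.3 in the activated control, a difference of 0.27.

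Chemokine genes with a member probe were Cxcl10, Ccl4, Ccl5, Ccl7 and Ccl8, 5 of 9 induced genes out of 21 on the list. Cxcl10 measured 1524.4 in E29, 10843.6 to 15955.1 with a median of 15007.9 in the other 9, 15797.0 in the activated control and 28.9 in non-activated cells. Its E29 level was 10.4-fold below the activated control and at least 30.5-fold above non-activated cells. Ccl5, which attracts T cells and monocytes, measured 3794.2 in E29, 6963.6 to 11851.7 with a median of 8604.5 in the other 9, 9730.4 in the activated control and 249.1 in non-activated cells, a 2.56-fold lower level in E29. Ccl4, an attractant of immune cells, had a pair of member probes, 4.45-fold and 2.23-fold below the activated control. The brighter of these read 6588.8 in E29, 14717.7 in the activated control and 3341.2 in non-activated cells. Ccl7 and Ccl8, both monocyte attractants, were also low under other compounds and are taken up below. The induced chemokine genes outside the members were Ccl2, Ccl12, Cxcl2 and Cxcl9. Cxcl9, which shares the receptor CXCR3 with Cxcl10, measured 13641.6 in E29, 15508.8 in the activated control and 10.0 in non-activated cells. Ccl2 measured 4402.8 in E29 and 4321.5 in the activated control, and the brighter Ccl12 probe measured 7472.4 in E29 and 5432.1 in the activated control. The induced chemokines were thus divided, with E29 minus activated control differences of -3.37 for Cxcl10 and -0.19 for Cxcl9.

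Surface receptors on the list contributed 5 of 10 induced genes, out of 15 with a probe. Cd274, the inhibitory ligand PD-L1, measured 923.0 in E29, 6395.1 to 8048.6 with a median of 7082.0 in the other 9, 7424.8 in the activated control and 362.7 in non-activated cells. It was 8.04-fold lower in E29, and no other compound lay near it. Il15ra, which presents interleukin-15, had member probes 5.06-fold and at least 4.41-fold lower, and Tnfrsf1b, a receptor for tumour necrosis factor, was 3.24-fold lower. Ccrl2, an atypical chemokine receptor, was 2.16-fold lower in E29, with 644.2 in E29, 1390.7 in the activated control and 61.0 in non-activated cells. Cd40, a costimulatory receptor, had 1 member probe and 3 induced probes that were not members. The member measured 143.9 in E29, 619.0 in the activated control and 23 in non-activated cells, and the other 3 probes differed by -0.92, -0.75 and -0.55. The Cd40 probes therefore differ in the size of the reduction but not in its sign. Cd69, Icam1, Vcam1, Fas and Clec4e were induced and had no member probe. Icam1, an adhesion molecule, measured 6170.2 in E29 and 7389.8 in the activated control, and Vcam1, another adhesion molecule, measured 1479.1 in E29 and 1518.1 in the activated control.

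Of the transcriptional regulators of the interferon response, Irf1 and Batf2 were among the 12 most lowered members. Irf1 had 5 member probes, the most of any gene, with E29 minus activated control differences of -3.57, -3.47, -3.30, -3.21 and -2.74. The first of these measured 335.4 in E29, 3629.7 to 4972.6 with a median of 3965.9 in the other 9, 3993.6 in the activated control and 57.6 in non-activated cells. All 5 probes thus placed E29 between 6.69-fold and 11.9-fold below the activated control. Batf2, a partner of IRF1 in macrophages, measured 198.2 in E29, 2701.7 to 6233.9 with a median of 3606.2 in the other 9, 4855.2 in the activated control and 10.0 in non-activated cells. Its level was 24.5-fold below the activated control in E29. Irf8, a factor of the macrophage lineage, measured 1292.9 in E29, 4148.3 to 7094.2 with a median of 5838.5 in the other 9, 6264.2 in the activated control and 513.7 in non-activated cells, 4.85-fold lower in E29. Nlrc5, the transactivator of MHC class I genes, was 2.34-fold lower, and Stat2, part of the complex that binds the ISRE, was 3.28-fold lower. Irf7, the amplifier of type I interferon, was induced without being a member, with 1072.1 in E29 and 698.4 in the activated control, a difference of 0.62.

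The NF-κB pathway and its feedback inhibitors supplied 9 of 13 induced genes, out of 21 with a probe. Socs3, an inhibitor of JAK and STAT signalling, measured 504.9 in E29, 4290.2 to 5372.2 with a median of 5098.5 in the other 9, 5550.7 in the activated control and 153.5 in non-activated cells, an 11-fold lower level in E29. Nfkbia, which encodes IκBα, measured 609.4 in E29, 2322.4 to 4055.1 with a median of 3503.3 in the other 9, 3213.5 in the activated control and 573.0 in non-activated cells. Its E29 level was 5.27-fold below the activated control and 1.06-fold above non-activated cells. Tnfaip3, which encodes the ubiquitin-editing inhibitor A20, measured 595.3 in E29, 2009.9 in the activated control and 195.7 in non-activated cells, and its partner Tnip1 had 3 member probes between 2.78-fold and 3.13-fold lower. Socs3, Nfkbia, Tnfaip3 and Tnip1 all encode inhibitors, and not every induced inhibitor was lower in E29. Rel, an NF-κB subunit, was 3.95-fold lower, Bcl3, a nuclear IκB protein, was 2.99-fold lower, and Traf1, a TNF receptor adaptor, was 3.68-fold lower. Dusp1, a phosphatase of MAP kinases, measured 452.5 in E29, 1885.0 to 3274.3 with a median of 2657.4 in the other 9, 1964.8 in the activated control and 383.0 in non-activated cells. Tnfaip2, a TNF-induced gene, had probes 2.86-fold and 2.38-fold lower. The induced genes of this list outside the members were Nfkb2, Nfkbie, Nfkbiz and Zc3h12a. Zc3h12a, an RNase that limits cytokine mRNA, had an induced probe that read 777.7 in E29 and 418.6 in the activated control, a difference of 0.89. The NF-κB subunit gene Nfkb2 differed by 0.18, the Nfkbie probes by -0.61 and -0.48, and Nfkbiz by -0.45.

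IFN-γ-inducible GTPases and regulators gave 10 of 13 induced genes, out of 18 with a probe. Gbp5 measured 589.7 in E29, 2125.4 to 3315.2 with a median of 2633.9 in the other 9, 3441.7 in the activated control and 10.0 in non-activated cells, 5.84-fold lower in E29. Tgtp1, a T cell-specific GTPase of the immunity-related family, was 8.37-fold lower, with 75.5 in E29 and 631.9 in the activated control. Ifi47, of the same family, measured 1221.9 in E29, 4393.6 to 5882.8 with a median of 5396.5 in the other 9, 5383.6 in the activated control and 24.2 in non-activated cells. It was 4.41-fold below the activated control and at least 24.4-fold above non-activated cells. Gbp3 had a pair of member probes, both 2.64-fold lower, and Gvin1, a very large GTPase, was 4.49-fold lower. Igtp, which encodes Irgm3, measured 3712.5 in E29, 7828.8 in the activated control and 178.4 in non-activated cells. Gbp2 had member probes 2.19-fold and 2.10-fold lower and a further, brighter probe that read 13331.2 in E29 and 16470.6 in the activated control, a difference of -0.31. Among the member probes of these GTPases, Tgtp1 was thus lowered most and Gbp2 least. Gbp7, Irgm1 and Irgm2 were induced and had no member probe, and the brighter Gbp7 probe read 1244.3 in E29 and 1219.4 in the activated control.

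Type I interferon response genes gave 14 of 22 induced genes, out of 33 with a probe. Mx1, an antiviral GTPase, measured 54.0 in E29, 384.8 to 662.2 with a median of 569.0 in the other 9, 590.8 in the activated control and 10.0 in non-activated cells. Its E29 level was 10.9-fold below the activated control, but Mx1 was not detected in E29, so this fold is a rough value. Cmpk2, a mitochondrial nucleotide kinase, measured 1145.2 in E29, 5561.7 to 6726.8 with a median of 6404.8 in the other 9, 5590.3 in the activated control and 128.9 in non-activated cells, 4.88-fold lower. Ifit2, which blocks viral translation, had probes 4.69-fold and 3.93-fold lower, and Ifi205, a nucleic acid sensor family gene, had probes 7.45-fold and 2.84-fold lower. Lesser reductions were seen for Mx2 at 3.64-fold, Trim30a at 3.36-fold, Oas1a at 3.28-fold, Eif2ak2 at 3.0-fold and Oas2 at 2.58-fold. Oas1a and Oas2 make the second messenger that activates RNase L, and Eif2ak2 is the double-stranded RNA kinase PKR. Tor3a, an interferon-induced ATPase, had 3 member probes between 2.76-fold and 3.99-fold lower. Parp14 was 2.15-fold lower and Usp18, the protease that removes ISG15, was 2.03-fold lower, so both lay close to the threshold. Oasl1 had member probes 2.78-fold and 2.27-fold lower and 1 further induced probe lowered by less. Induced genes of this list with no member probe were Isg15, Ifit3, Oasl2, Rsad2, Irf7, Dhx58, Ifi204 and Ifi35. Isg15, a ubiquitin-like modifier, read 4484.3 in E29 and 7959.7 in the activated control, a difference of -0.83, and 3 Ifit3 probes differed by -0.32, -0.04 and 0.27.

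Effector enzymes and secreted defence proteins gave 8 of 10 induced genes, out of 24 with a probe. Nos2, the inducible nitric oxide synthase, measured 124.6 in E29, 376.0 to 1281.6 with a median of 806.2 in the other 9, 1109.3 in the activated control and 28.1 in non-activated cells, 8.90-fold lower in E29. Slc7a2, the transporter that supplies arginine to nitric oxide synthesis, had probes 5.29-fold and 4.81-fold lower. Edn1, the vasoactive peptide endothelin-1, measured 297.0 in E29, 2094.9 to 5069.9 with a median of 3453.1 in the other 9, 4118.2 in the activated control and 36.3 in non-activated cells, 13.9-fold lower. These genes of nitric oxide and vascular signalling were lower in E29 than in any other activated array. Mmp13, a collagenase, had probes 11.4-fold and 8.42-fold lower, the first of which read 66.4 in E29, 760.5 in the activated control and 19 in non-activated cells. Cfb, complement factor B, read 29.8 in E29 and 477.0 in the activated control, at least 9.54-fold lower. Ptgs2, the inducible cyclooxygenase of prostaglandin synthesis, read 77.6 in E29, 231.2 in the activated control and 10.0 in non-activated cells, 2.98-fold lower. Upp1, uridine phosphorylase, had 3 member probes between 3.51-fold and 4.39-fold lower, and Saa3, an acute-phase protein, was 3.31-fold lower. Gch1, which starts synthesis of the nitric oxide synthase cofactor, and Hdc, which makes histamine, were induced and had no member probe.

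For antigen processing, Tapbp, the tapasin that loads MHC class I, had a member probe 2.21-fold lower and a further induced probe that read 628.3 in E29 and 707.9 in the activated control. Tap1 was induced and had no member probe. Lists of immediate early transcription factors (12 genes with a probe) and of oxidative and unfolded-protein stress genes (11 with a probe) had no gene that activation raised 4-fold, and so no member. Atf3, of the first list, fell just short with a rise of 1.94 and read 402.3 in E29, 2393.0 in the activated control and 748.9 in non-activated cells.

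The median E29 minus activated control difference over the induced probes of each list was -2.20 for effectors (14 probes) and -1.77 for the IFN-γ-inducible GTPases and regulators (22 probes). It was -1.52 for the NF-κB list (17 probes), -1.18 for the type I interferon list (33 probes) and -1.06 for chemokines (11 probes). Antigen processing had -0.93 (4 probes), cytokines -0.89 (11 probes) and surface receptors -0.74 (16 probes). The same median over all induced probes was -1.20. Over all tested probes of each list, induced or not, it was -1.42 for the IFN-γ list, -1.25 for effectors, -1.14 for the NF-κB list, -1.04 for the type I interferon list and -0.87 for cytokines. It was -0.74 for surface receptors, -0.50 for chemokines and -0.27 for antigen processing, so the order changed with the probes counted. The lists hold few probes each, so this order is a description of these arrays.

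The lists covered 77 of the 172 members, and the other 95 had a median E29 minus activated control difference of -1.83 on the log2 scale, with a range of -4.76 to -1.01. Several of these were among the 12 most lowered members. Slamf7, a SLAM-family receptor of immune cells, measured 12.9 in E29, 411.0 to 1198.8 with a median of 848.3 in the other 9, 1350.8 in the activated control and 10.0 in non-activated cells. Both E29 and non-activated cells were under 50, so the E29 level was at least 27.0-fold below the activated control, and the lowest other compound was E19. Themis2, a signalling scaffold of macrophages and B cells, measured 50.3 in E29, 794.2 to 1033.6 with a median of 944.3 in the other 9, 1274.2 in the activated control and 155.7 in non-activated cells. It was 25.4-fold below the activated control and 3.10-fold below non-activated cells. Il10ra, the ligand-binding chain of the interleukin-10 receptor, measured 50.3 in E29, 271.5 to 650.1 with a median of 473.3 in the other 9, 948.7 in the activated control and 61.8 in non-activated cells, 18.9-fold lower in E29. Hcar2, the receptor for nicotinic acid and β-hydroxybutyrate, measured 179.9 in E29, 2288.8 to 3233.0 with a median of 2728.5 in the other 9, 3137.1 in the activated control and 184.6 in non-activated cells, 17.4-fold lower. For Il10ra and Hcar2, E29 thus lay at about the non-activated level. The E29 values of Themis2 and Il10ra lay just above the floor of 50, so their folds rest on readings near that floor. Ifitm3, which restricts virus entry, measured 293.6 in E29, 1147.1 to 2654.3 with a median of 2269.3 in the other 9, 3280.6 in the activated control and 64.9 in non-activated cells, 11.2-fold lower. The member probe of the tyrosine kinase gene Src read 45.6 in E29 and 624.5 in the activated control, at least 12.5-fold lower. A further Src probe was not strongly induced and differed by only -0.03, so the probes of this gene disagree. AA467197 read 185.6 in E29 and 2540.1 in the activated control, 13.7-fold lower. Ubd, the ubiquitin-like modifier FAT10, was 10.5-fold lower.

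How much induction remained in E29 differed widely among members. The remaining share divides the E29 level's distance above the non-activated level by the same distance for the activated control, in percent, on the log2 scale. Its median over the 172 members was 41.4%, with an interquartile range across probes of 24.8% to 56.7% and a full range of -75.0% to 83.3%. The largest shares were those of Il1b at 83.3%, Gbp2 at 81.8%, Igtp at 80.3%, Oasl1 at 77.9% and Gbp3 at 77.9%. These 5 are cytokine and interferon-inducible genes with rises of at least 5.35 on the log2 scale. In E29, 63 members were less than 2-fold away from their non-activated level, 62 lay 2- to 4-fold above it, 45 lay at least 4-fold above it and 2 lay at least 2-fold below it. The last 2 were Themis2 and Mfap3l. Mfap3l, a microfibril-associated protein gene, read 13.1 in E29, 434.8 in the activated control and 126.3 in non-activated cells, with a non-activated level at least 2.53-fold above E29. The lipid phosphatase gene Plpp3 read 243.9 in E29, 1751.7 in the activated control and 435.8 in non-activated cells.

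Members with more remaining induction had larger rises with activation. The median rise with activation was 2.28 on the log2 scale in the 63 members within 2-fold of the non-activated level, 2.88 in the 62 that lay 2- to 4-fold above it and 4.95 in the 45 at least 4-fold above it. The median E29 minus activated control differences of the same classes were -2.06, -1.61 and -1.67. These values share the non-activated and activated arrays, and the classes were formed from them, so no test was made. A member at least 4-fold above the non-activated level in E29 also had to be at least 2-fold below the activated control. The larger rises of that class thus follow in part from how the classes were formed. For 10 members both E29 and the non-activated control were under 50, and their share of 0% is set by that floor. Slamf7, Cfb, Sdcbp2, Ralgds and Apol9b were among them.

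Probes of the same gene gave a partial check within each array. Of the 133 genes, 82 had 1 probe on the array and 51 had several. All probes were members for 14 of the 51, and 37 had at least 1 probe that was not a member. These 37 are not all cases of disagreement. Some of the further probes stayed at or under 50 on all arrays, as for Ptgs2 and Gvin1. Some were at least 2-fold lower in E29 but fell short of the activation threshold, as for Il15ra and Tnfaip2. Others were lowered by less than 2-fold, as for Mmp13 and Src. In 8 genes a further probe was strongly induced without being a member. These were Cd40, Gbp2, Oasl1, Usp18, Samhd1, Tapbp, Agfg1 and Trafd1. Samhd1, a nucleotide triphosphatase that restricts viruses, had a member probe with a difference of -1.25 and a dimmer one that read 224.0 in E29 and 412.1 in the activated control. Related genes such as Bcl2a1c and Bcl2a1d, Phf11a and Phf11d, Ifi205 and Ifi202b, or the Gbp and Slfn families may share probe signal, and the split between them was not tested.

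The 9 other compounds were compared with each other, so these differences used neither the E29 array nor the activated control. The choice of members used both, and the levels of these 9 arrays entered the median rise. Each compound was set against the median of the other 8. With this comparison E19 had 14 of 172 members at least 2-fold lower, against 0.409% of all 10502 probes tested and 5 of the 122 other induced probes. E33 had 6 members lower, against 0.59% of all probes, and 2 of the other induced probes. E5 had 3 members lower (0.133% of all probes) and E20 had 3 (0.105%). E4, E14, E18, E21 and E23 had 0 members lower, with 0.00952%, 0.0286%, 0.0571%, 0.00952% and 0.00952% of all probes. The 1 member at least 2-fold higher was Sdcbp2 in E21 (0.0952% of all probes), with a difference of 1.02. The other 8 had 0 members higher, with 0.238% of all probes in E4, 0.181% in E5, 0.00952% in E14, 0.0286% in E18, 0.305% in E19, 0.162% in E20, 0.0286% in E23 and 0.514% in E33. No count has a replicate, and E33 and E19 also had the largest shares of lower probes over all probes among these 9 compounds.

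Lowered in at least 1 of these 9 compounds were 20 members, or 11.6%, against 7 of the 122 other induced probes, or 5.74%, and 1.04% of all tested. The 20 are probes, and Phf11a, Upp1 and Mmp13 each entered through more than 1. The members' median SD across the 9 compounds was 0.205 on the log2 scale, against 0.199 for the other induced probes and 0.161 for all tested. For scale, E21 and E23 differed with an SD of 0.184 over 9741 probes, and their largest difference among the members was 0.65. Among the members, differences of over 1 thus exceeded the largest gap between this pair of arrays. The pair are not replicates and do not measure the spread between replicates. Over all 10502 probes, E21 ranged from -1.20 to 1.72 against the other 8 compounds.

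Ccl7 and Ccl8 were low under the same 3 compounds. Ccl8 measured 112.3 in E19, 228.5 in E20 and 236.7 in E5, and 478.0 to 876.4 in the other 6 compounds, with 211.4 in E29, 671.9 in the activated control and 10.0 in non-activated cells. Ccl7 measured 430.6 in E19, 528.6 in E5 and 602.0 in E20, and 1150.0 to 2067.9 in the other 6 compounds, with 949.7 in E29, 1981.1 in the activated control and 405.7 in non-activated cells. For Ccl7 these 3 compounds lay below E29, and E19 lay near the non-activated level. The differences from the other 8 compounds were -2.40 in E19, -1.38 in E20 and -1.33 in E5 for Ccl8, and -2.18, -1.69 and -1.88 in the same order for Ccl7. Il27 was lower in E19 (-1.40) and E5 (-1.07), and Tagap in E19 (-1.37) and E20 (-1.03). These 4 genes were the members lowered by more than 1 compound other than E29.

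The other members lowered in E19 were Gpr18 (-1.55), Ubd (-1.27), Phf11a (-1.23 and -1.14), Sdcbp2 (-1.20), Upp1 (-1.18 and -1.13), Nos2 (-1.12), Slamf7 (-1.07) and Ifitm3 (-1.04). Gpr18, a G protein-coupled receptor of leukocytes, measured 138.0 in E19 and 271.5 to 589.2 in the other 8 compounds, with 113.8 in E29. For Nos2 the E19 value of 376.0 lay between E29 at 124.6 and the activated control at 1109.3. The medians over all members were -0.20 in E19 against the other 8 compounds and -1.65 in E29 against the other 9.

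In E33 the low members were other genes. Ifi202b, an interferon-inducible DNA-binding protein, measured 152.0 in E33 and 431.8 to 1088.0 in the other 8 compounds, with 151.1 in E29, 408.0 in the activated control and 37.5 in non-activated cells. Ptgs2 measured 70.9 in E33 and 135.7 to 263.5 in the other 8, with 77.6 in E29. Both genes were about as low in E33 as in E29. The differences from the other 8 compounds were -2.14 for Ifi202b, -1.61 for Ptgs2, -1.43 and -1.01 for the Mmp13 probes, -1.10 for the protein C receptor gene Procr and -1.02 for the ATPase gene Atp13a4. Against the median of all other activated arrays, Procr (-0.98) and Atp13a4 (-0.98) no longer reached 2-fold, which left 4 members lower in E33. The 6 members lower in E33 and the 14 lower in E19 had 0 probes in common.

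Against the activated control, which chose the members, E19 had 25 members at least 2-fold lower (1.43% of 9816 probes tested), E20 had 11 (0.604%) and E5 had 10 (0.765%). E14 and E33 had 5 each (0.503% and 0.784%), E23 had 2 (0.307%) and E4, E18 and E21 had 1 each (0.379%, 0.246% and 0.194%). The members' median difference from the activated control was below 0 in all 9, between -0.31 in E19 and -0.07 in E4. These 9 comparisons share the activated control array, and a member had to be high in that array to be chosen. The activated control was the highest of it and the 9 compounds for 48 members (27.9%), for 27 of the other induced probes (22.1%) and for 10.4% of all probes. In only 5 members did another compound lie below E29, namely Ccl7 (E5, E19 and E20), Ccl8, Il27 and Ccrl2 (E19) and Ptgs2 (E33).

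The members on either side of the thresholds differed little. Just inside the E29 threshold were Usp18 at -1.02 and Itga5, an integrin chain, at -1.01, and just outside it were an unnamed probe at -0.99 and the RNA helicase gene Dhx58 at -0.97. Just inside the activation threshold were the endocytic gene Ehd1 at 2.01 and Bcl3 at 2.02, and just outside it were Zfp36, which destabilises Tnf mRNA, at 1.99 and Rgcc at 1.99. A further 209 probes rose 2- to 4-fold with activation and were at least 2-fold lower in E29.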

How the data were processed

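Total RNA of 12 BV2 cultures, 1 per condition, was hybridised to single-colour Illumina arrays. The authors' deposited processed values are linear intensity values read with GenomeStudio 2010.3, per the submitters' processing notes. How they were normalized is not given in the sources used. Their lowest value of 10 was shared by about the same share of probes on every array. The deposited scanner table holds raw intensity and, per the file headers, a detection p-value for each probe.

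Processed intensity was raised to at least 50 and put on the log2 scale. A fold against a value under 50 is a bound, written "at least". A probe entered a comparison if any array compared exceeded 50, and it counted as different at 2-fold. Levels were compared within a probe only. As an alternative, scanner signals were processed with neqc in limma 3.58.1 (R 4.3.3), with an offset of 16. For the counts under neqc, each array was then raised to its own lowest detected value, 5.47 to 5.84 on the log2 scale. Other alternatives were floors of 20 and 100, other arrays as the point of comparison, and 1.5-fold calls. Summaries used numpy 2.4.6 and pandas 2.3.3 under Python 3.11.15.

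The platform annotation named 23978 of 25697 probes, and 23962 symbols were updated through RefSeq Gene IDs. The 1719 others are unnamed here, and no probe had several genes. The members and gene lists were chosen with earlier results of these data known. The text names the 12 most lowered members, the 10 highest rises, every member on a list, the 8 lowest and 4 highest differences in another compound, the 5 largest remaining shares and 2 probes on each side of each threshold. A few further members were named after their values were seen, for their position or for a related gene in the same family. The member rule was tested on simulated data.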

Additional observations from a re-analysis of the deposited data

How the results depend on the processing

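The rule found 187 probes with neqc on the scanner signals (166 shared with the 172 members), 235 with a floor of 20 (all 172 shared) and 143 with a floor of 100 (all of them members). It found 162 when the median of all activated arrays but E29 stood in for the activated control and 206 when the rise was taken from the activated control (169 shared). Every member stayed lower in E29 than in the activated control under neqc and both floors, and at least 2-fold lower for 172, 172 and 171 of the 172, with median differences of -1.93, -1.84 and -1.73 on the log2 scale. Members within 2-fold of the non-activated level numbered 59 with neqc, 45 with a floor of 20 and 88 with a floor of 100. The median remaining share was 39.5% with neqc and 45.8% with a floor of 20, and 34.6% with a floor of 100, which raises more non-activated values. With 1.5-fold calls in place of 2-fold, members lower than the other 8 compounds numbered 1 in E4, 13 in E5, 5 in E14, 28 in E19, 8 in E20, 1 in E23 and 16 in E33. The share of all probes at 1.5-fold was not computed, so these counts carry no result about the members. With neqc and 2-fold calls, E14 had 1 member lower than the other 8 compounds. Limited to probes detected on all 11 activated arrays, 10.9% of members and 5.74% of the other induced probes were lower in at least 1 other compound. The E29 minus activated control difference of single members moved by more than 0.184 for 60 members with neqc. It did so for 10 with a floor of 20 and 30 with a floor of 100. After neqc, each array was raised to its own lowest detected value. The median difference of all probes from the activated control was then -0.18 in E5, -0.13 in E14, -0.14 in E18 and -0.11 in E19. It was 0.14 in E21, -0.20 in E33 and 0.09 in E29. On each array most probes were not detected, so these medians mainly reflect the floors of the arrays and not a shift of expression. No paired analysis was possible because there was 1 array for each condition. Without replicates, differences between arrays cannot be told apart from differences between conditions, and values under 50 limit 58 members in non-activated cells and 12 in E29.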
